A study of Mus musculus with 6 samples.

Results

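Proteasome genes were followed in poly(A) RNA from whole hearts of C57BL/6 mice aged 6 to 8 weeks. The AngII group held 3 hearts of mice given angiotensin II, a peptide hormone that constricts vessels and raises blood pressure. The CON group held 3 hearts of control mice, and each heart gave 1 library. The dose, route and duration of angiotensin II, what the control mice were given, and the sex of the animals are not stated in the labels, and neither group carries an engineered allele. Protein-coding genes whose symbols have the form Psma to Psmg followed by a digit were taken as members, which gave 50 of the 55401 genes in the deposited table. Of these, 49 encode proteasome subunits or proteins that act on the proteasome, and Psmc3ip, a meiotic recombination factor that shares only the start of its name, was set apart. Another 5 genes with such symbols are pseudogenes and were left out.

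The proteasome degrades proteins that carry ubiquitin chains. Its 20S core is a barrel of stacked rings, in which alpha subunits form the gated outer rings and beta subunits the inner rings that hold the proteolytic sites. The 19S regulatory particle caps the barrel: its ATPases unfold the substrate, and its non-ATPase subunits bind ubiquitin and remove it. Interferon-induced subunits can replace the constitutive catalytic ones and so form the immunoproteasome, which shapes the peptides shown on class I molecules. In heart muscle the proteasome turns over sarcomere proteins and is part of the protein balance of growing cardiomyocytes.

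The members fall into 14 constitutive core subunits (7 alpha, 4 non-catalytic beta and 3 catalytic beta), 17 subunits of the 19S particle (6 ATPases and 11 non-ATPases), 3 immunoproteasome subunits, 5 activators of the core, 4 assembly chaperones of the core, 3 of the 19S particle, 1 regulator (Psmf1, or PI31), 1 testis alpha subunit (Psma8) and 1 thymus beta subunit (Psmb11). Of the 49 genes, 48 had enough counts to be tested. The exception was Psmb11, whose estimated counts were 0, 4 and 2 in AngII replicates 1 to 3 and 0 in each CON library.

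Libraries held 51202916 to 63564869 estimated counts, of which mitochondrially encoded genes took 35.8% to 47.6%. The top share was that of CON replicate 1, and CON replicate 3 came next at 41.3%. With nuclear pseudogene copies of mitochondrial genes also set aside, 33.4% of the counts of CON replicate 1 were left. In the other libraries 43.4% to 51.0% were left. Cardiomyocyte markers summed to 31081 to 46348 CPM (counts scaled to an equal effective library size), and adipocyte markers to at most 2.94 CPM. AngII replicate 1 stood apart by transcript length. It gave more of its counts to short transcripts than AngII replicates 2 and 3 did. The main results are therefore given with and without that library. In these whole hearts, fewer cells of a type and less RNA per cell cannot be told apart.

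Per length, the median constitutive core gene stood at 17.3 to 27.9 FPKM (fragments per kilobase, scaled to library size) in the 6 libraries, and the median 19S gene at 11.5 to 17.2 FPKM. The alpha subunit Psma6 had the highest level of all members in both groups, at 64.6 ± 5.61 FPKM in AngII hearts and 50.1 ± 6.61 FPKM in CON hearts (SD, n = 3 each). Next in both groups came the 19S ATPase Psmc3, at 56.5 ± 3.31 FPKM in AngII hearts and 48.3 ± 8.45 FPKM in CON hearts, and then the catalytic subunit Psmb5, at 54.7 ± 1.80 and 42.1 ± 5.25 FPKM in AngII and CON hearts. The ranges of mean ± SD of these 3 genes overlapped in CON hearts. In AngII hearts each overlapped that of its neighbour in this order, and those of Psma6 and Psmb5 did not overlap. Across the 14 core genes the highest FPKM was 5.77 to 6.74 times the lowest in any library, although the assembled core holds its subunits in equal number. Across the 17 genes of the 19S particle that range was 9.56 to 15.1 times, with Psmc3 highest and Psmd11 lowest in every library. By mean FPKM the 19S chaperones, the core chaperone Psmg3 and Psmf1 lay below every constitutive core and 19S subunit in both groups. The lowest of them was Psmd5, at 1.01 ± 0.518 FPKM in AngII hearts and 1.02 ± 0.318 FPKM in CON hearts. The core chaperones Psmg1, Psmg2 and Psmg4 lay within the range of the subunits. Their means were 8.58, 7.79 and 13.5 FPKM in AngII hearts, and 7.44, 6.70 and 9.19 FPKM in CON hearts. FPKM is not rescaled for the mitochondrial share, so it is used here for levels between genes, and CPM for 1 gene across hearts.

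**Figure D1:**
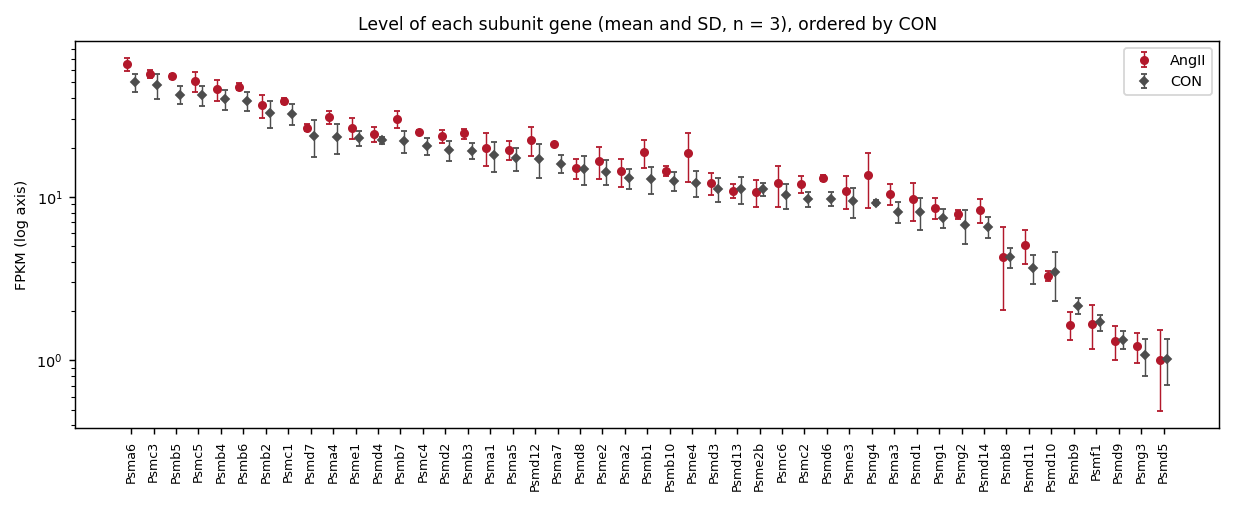
Mean FPKM (log axis) of the subunit genes, ordered by the CON mean, with AngII left of CON for each gene and bars of 1 SD over 3 libraries. Psma8 and Psmb11, with means under 0.1 FPKM, are left out. Core and 19S subunits take the upper end, and the 19S chaperones, Psmg3, Psmf1 and Psmb9 the lower.

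No proteasome gene passed an adjusted p of 0.05 with all 6 libraries (edgeR quasi-likelihood test, Benjamini-Hochberg over 16759 genes), a test in which 6 genes, or 0.0358%, passed. At an unadjusted p under 0.05, 5 of the 48 tested genes were higher and 0 were lower in AngII hearts, where 3.57% of all genes were higher and 3.94% lower. The direction was shared by most members. The log2 change was above 0 in 40 of 48, with a median of 0.20, while 50.9% of all genes tested lay above 0, with a median of 0.01. In 15 of 48 every AngII library lay above every CON library, which held for 7.97% of all genes. In 0 of 48 did every AngII library lie below every CON library, against 9.21% of all genes.

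With all libraries, the constitutive core subunits had the largest median shift of the main classes, with 14 of 14 log2 changes above 0 and a median of 0.34. The 19S particle followed with 16 of 17 above 0 and a median of 0.24. Both shifts were larger in AngII replicate 1: relative to the CON mean, the median core subunit stood 0.60 higher on the log2 scale there, and 0.16 and 0.13 higher in AngII replicates 2 and 3. For the 19S subunits these medians were 0.28, 0.21 and 0.16. Without AngII replicate 1, 13 of 14 core and 14 of 17 19S log2 changes were above 0, with medians of 0.12 and 0.19, so the order of both classes turned. Over all 48 genes 35 were above 0 without that library, with a median of 0.10, where 48.6% of all genes were above 0. At an unadjusted p under 0.05, 9 members were higher and 2, Psmb8 and Psmd8, lower without AngII replicate 1, where 7.75% of all genes were higher and 7.6% lower.

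**Figure D2:**
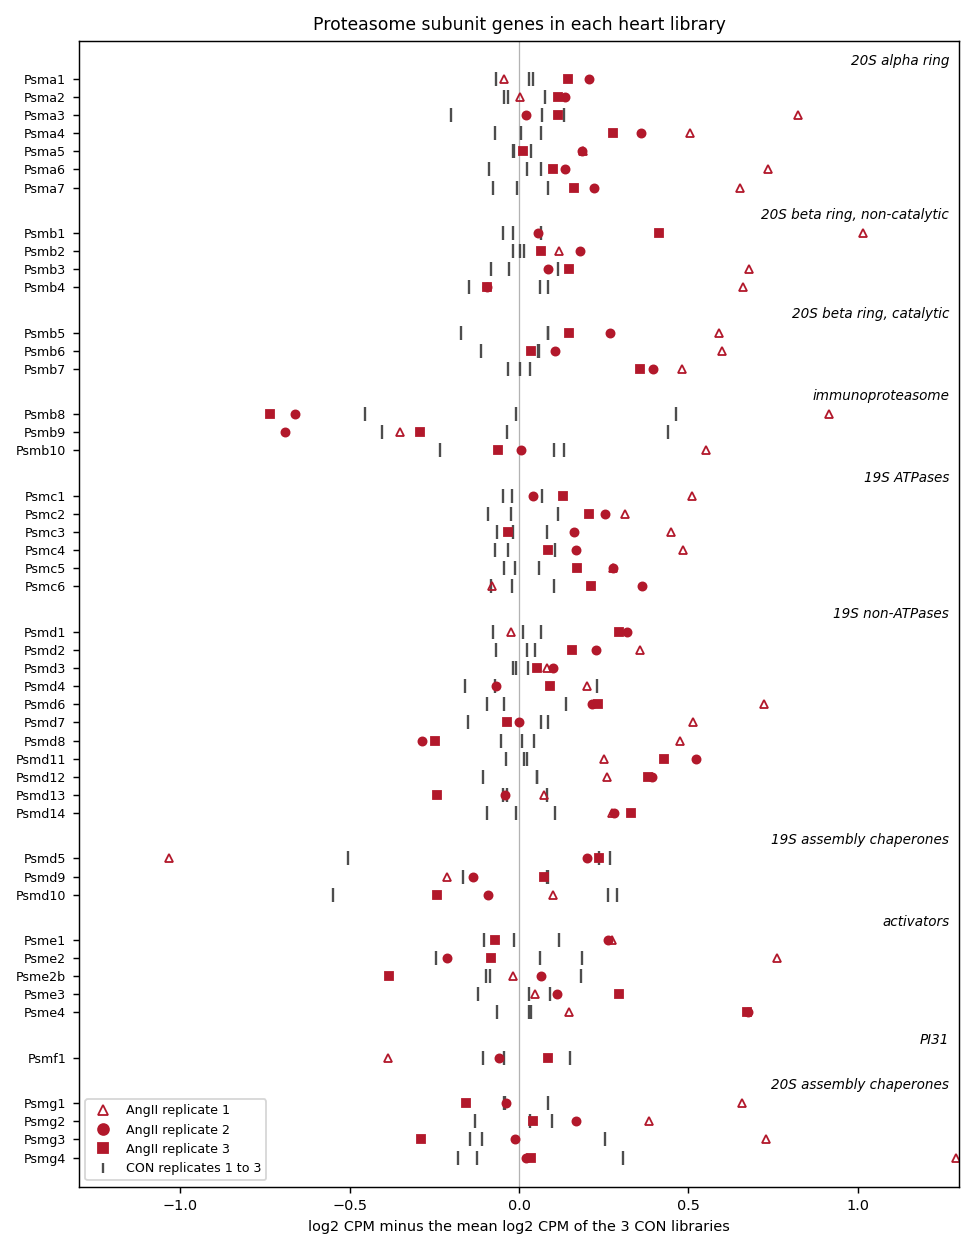
Log2 CPM of each tested subunit gene in each library minus the mean log2 CPM of the 3 CON libraries, by class (red symbols, AngII; grey ticks, CON). Psma8, at under 1 CPM in every library, is left out. Most core and 19S symbols lie right of 0, and AngII replicate 1 (open triangles) lies farthest right for many of them.

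AngII replicate 1 had the highest CPM of the 6 libraries in 28 of 48 genes and the lowest in 3, compared with 30.9% and 31.6% of all genes. Its departure from the other AngII hearts went with transcript length. For the 24 members whose longest coding transcript is under 1500 bp, its log2 CPM exceeded the mean of AngII replicates 2 and 3 by a median of 0.37. For the 10 members of 2500 bp or more the median difference was -0.20. Over all genes the medians in these length ranges were 0.47 and -0.16. Across the 48 members Spearman's rho between this difference and length was -0.53, a description of libraries that all points share. An offset for transcript length in each library left 36 of 48 members above 0, with a median of 0.11, while 51.9% of all genes were above 0, with a median of 0.02. The core and 19S medians were then 0.14 and 0.17, again in the turned order. With that offset, 2 members, Psme4 and Psmd11, were higher and 1, Psmb9, was lower at an unadjusted p under 0.05. Of all genes 4.34% were higher and 3.82% lower.

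**Figure D3:**
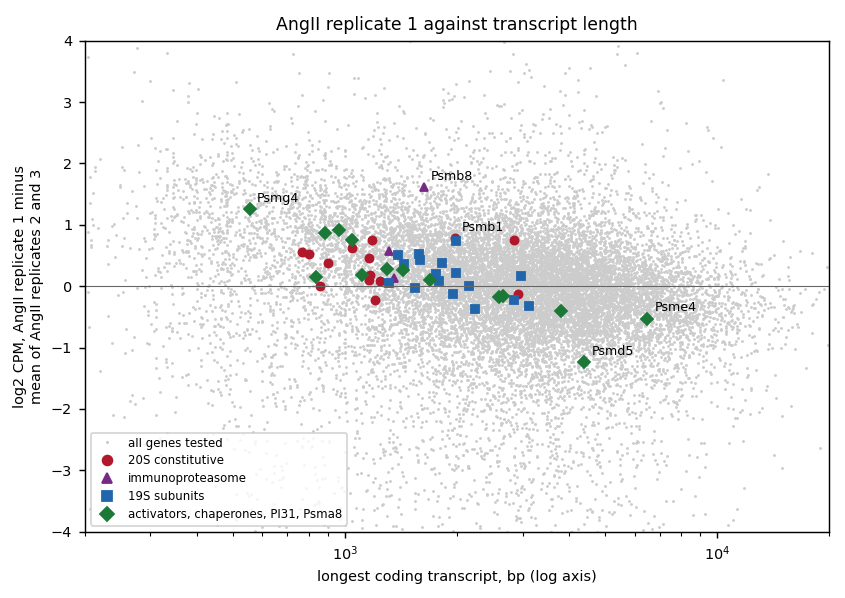
Log2 CPM in AngII replicate 1 minus the mean of AngII replicates 2 and 3, against the length of the longest coding transcript (log axis), for all genes tested (grey) and the subunit genes (coloured by class). Short members such as Psmg4 lie above 0, and long ones such as Psmd5 and Psme4 below it.

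Psme4 was the 1 member called by edgeR when AngII replicate 1 was left out, while Psmb7 had the smallest p with all 6 libraries. Psme4 encodes PA200, a large single-chain activator that binds the ends of the core and opens its gate without ATP. Its level was 124, 179 and 179 CPM in AngII replicates 1, 2 and 3, against 114, 115 and 107 CPM in CON replicates 1, 2 and 3. All AngII hearts lay above all CON hearts, with AngII replicate 1 closest to them. With all 6 libraries the log2 change was 0.52 (SE 0.18) and edgeR's adjusted p was 0.591. Without AngII replicate 1, Psme4 rose 1.60-fold (log2 0.68, SE 0.08, edgeR adjusted p = 0.0410). It was the only member called in that fit, in which 129 of 17661 genes, or 0.73%, passed. With the length offset as well, the log2 change was 0.69 and edgeR's adjusted p was 0.0312, in a fit that called 0.93% of genes. The Psme4 transcript, at 6491 bp, is the longest among the members, on the side of the length range that read lower in AngII replicate 1.

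For the other activators the groups overlapped. Psme1 and Psme2 form the interferon-inducible PA28 cap, and Psme3 its nuclear relative. Psme1 had 67.6, 67.1 and 53.2 CPM in AngII hearts, against 60.7, 52.0 and 55.3 CPM in CON hearts. Psme2 had 46.9, 23.9 and 26.1 CPM in AngII hearts, against 28.8, 23.3 and 31.4 CPM in CON hearts, so that only AngII replicate 1 lay outside the CON range on the high side. Psme3 had a log2 change of 0.15 and Psme2b one of -0.10, with edgeR's adjusted p at 0.819 and 0.902. Psme2 and Psme2b are near-identical copies and their counts can be split between them, and exons of Psme1 overlap those of Emc9 on the other strand.

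Among the core subunits, Psmb7 and Psma4 had an unadjusted p under 0.05. Psmb7, the constitutive catalytic subunit with trypsin-like activity, had 115, 108 and 105 CPM in AngII hearts, against 84.0, 80.2 and 82.2 CPM in CON hearts. The AngII values lay together, well above the CON values. The log2 change was 0.41 (SE 0.13), with an edgeR adjusted p of 0.536. DESeq2, which called 276 genes (1.65%), gave Psmb7 a log2 change of 0.42 and an adjusted p of 0.0283, the only member it called. Psma4, an alpha ring subunit, had 84.5, 76.5 and 72.2 CPM in AngII hearts, against 56.8, 59.8 and 62.3 CPM in CON hearts (log2 change 0.38, SE 0.13, edgeR adjusted p = 0.586). For both genes the groups did not overlap. Without AngII replicate 1 the log2 changes were 0.38 and 0.32.

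The other catalytic subunits leaned on AngII replicate 1. Psmb5, which carries the chymotrypsin-like activity, had 62.8, 50.2 and 46.2 CPM in AngII hearts, against 44.3, 37.0 and 44.2 CPM in CON hearts. Psmb6, which carries the caspase-like activity, had 121, 85.9 and 81.7 CPM in AngII hearts, against 82.8, 73.7 and 82.9 CPM in CON hearts. For Psmb5 the groups did not overlap, and for Psmb6 AngII replicate 3 lay among the CON values. Their log2 changes of 0.34 and 0.27 became 0.21 and 0.07 without AngII replicate 1. The largest log2 change in the core was that of Psmb1, a non-catalytic beta subunit, at 0.55 (SE 0.25, edgeR adjusted p = 0.685). Its values were 130.3, 66.9 and 85.7 CPM in AngII hearts, against 62.3, 63.7 and 67.4 CPM in CON hearts, and 1 AngII heart lay within the CON range. The remaining 9 core genes had log2 changes from 0.08 to 0.36, and in 3 of them, Psma6, Psma7 and Psmb2, the groups did not overlap.

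In the 19S particle, Psmd11 and Psmd12 had an unadjusted p under 0.05, and both are scaffold subunits of the lid. Psmd11 had 30.6, 36.9 and 34.5 CPM in AngII hearts, against 25.0, 26.1 and 25.96 CPM in CON hearts (log2 change 0.41, SE 0.14, edgeR adjusted p = 0.573). Psmd12 had 58.5, 64.1 and 63.6 CPM in AngII hearts, against 45.4, 50.7 and 50.7 CPM in CON hearts (log2 change 0.34, SE 0.13, edgeR adjusted p = 0.627). For both, AngII replicate 1 was the lowest AngII heart and still above every CON heart. Without it their log2 changes were 0.48 and 0.39, with edgeR adjusted p-values of 0.0962 and 0.146.

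**Figure D4:**
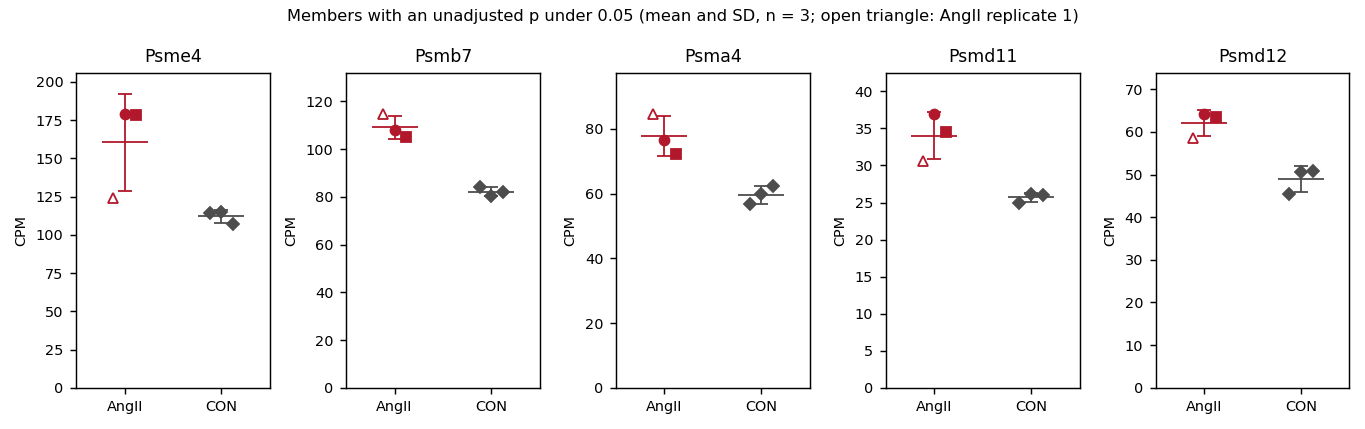
CPM of the 5 members with an unadjusted p under 0.05, with AngII left and CON right, each point a library and bars the mean and 1 SD (n = 3). In all 5 the AngII points lie above the CON points, and for Psme4, Psmd11 and Psmd12 AngII replicate 1 (open triangle) is the lowest AngII point.

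Psmd6, another lid subunit, had 49.5, 34.8 and 35.2 CPM in AngII hearts, against 33.0, 28.1 and 29.1 CPM in CON hearts (log2 change 0.41, SE 0.19, edgeR adjusted p = 0.684). Its groups did not overlap, as was the case for Psmd14, the lid's deubiquitinase, and Psmd2, the large base subunit that docks ubiquitin receptors. In 8 of the 17 genes of the particle every AngII library lay above every CON library, against 7.97% of all genes. Psmd3, Psmc2 and Psmc5 were also among these. Psmd14 had 24.7, 24.8 and 25.6 CPM in AngII hearts, against 21.9, 20.2 and 19.1 CPM in CON hearts. The 6 ATPases had log2 changes in a narrow band from 0.17 to 0.26. Of these Psmc2 had the smallest p, with 66.9, 64.1 and 62.1 CPM in AngII hearts, against 58.3, 50.5 and 53.0 CPM in CON hearts (log2 change 0.26, SE 0.13, edgeR adjusted p = 0.704). The lid subunit Psmd13 was the 1 gene of the particle with a log2 change below 0, at -0.07, and its exons overlap those of Sirt3 on the other strand. Psmd8, at 68.8, 40.6 and 41.7 CPM in AngII hearts and 47.7, 49.9 and 51.0 CPM in CON hearts, had AngII hearts on both sides of the CON range. Its log2 change was 0.02 with all libraries and -0.27 without AngII replicate 1 (edgeR adjusted p = 0.232).

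The promoters of Psme4, Psmd11, Psmd12 and Psmb5 are shown as examples. All 4 genes read higher in every AngII heart than in every CON heart. That held for 15 of 48 members, and the promoters of the others, Psmb7 and Psma4 among them, are not printed. Each of the 4 windows holds a match described below, so the 4 do not stand for all 15. Each is a stretch of RefSeq's mouse sequence (GRCm38.p6), 5′ to 3′ on the gene's strand, that ends just before the gene's start in the deposited table. That end lies 49, 44 and 27 bases before the RefSeq start for Psme4, Psmd12 and Psmb5, and directly at it for Psmd11, and the bases between are not printed. Matches to the antioxidant response element core TGACNNNGC, which the factors encoded by Nfe2l1 and Nfe2l2 bind, and to the kappa B pattern (GGGA and CC with NNNN between), which NF-κB binds, are in capitals on either strand. No 2 matches overlap in these stretches. Psme4 lies at chr11:30771726-30880361 (+), and the stretch printed is chr11:30771525-30771725. Neither of its 2 matches lies in that stretch. The kappa B match lies in the 49 bases not printed, and the match to the antioxidant response element core begins there and runs past the RefSeq start.
Psme4: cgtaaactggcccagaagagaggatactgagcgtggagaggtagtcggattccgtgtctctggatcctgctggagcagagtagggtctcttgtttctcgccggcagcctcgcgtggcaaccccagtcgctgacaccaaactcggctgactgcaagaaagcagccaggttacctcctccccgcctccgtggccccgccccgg
Psmd11 (chr11:80428365-80428614, +): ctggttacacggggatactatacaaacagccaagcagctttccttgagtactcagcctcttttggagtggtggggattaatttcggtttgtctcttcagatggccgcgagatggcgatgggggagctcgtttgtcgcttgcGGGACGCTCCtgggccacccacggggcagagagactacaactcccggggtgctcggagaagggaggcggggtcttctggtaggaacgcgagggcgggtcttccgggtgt
Psmd12 (chr11:107479278-107479483, +): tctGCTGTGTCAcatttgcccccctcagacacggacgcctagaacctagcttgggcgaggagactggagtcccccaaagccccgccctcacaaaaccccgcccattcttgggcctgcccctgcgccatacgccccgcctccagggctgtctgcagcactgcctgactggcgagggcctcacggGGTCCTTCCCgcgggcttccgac
Psmb5 (chr14:54618023-54618245, -): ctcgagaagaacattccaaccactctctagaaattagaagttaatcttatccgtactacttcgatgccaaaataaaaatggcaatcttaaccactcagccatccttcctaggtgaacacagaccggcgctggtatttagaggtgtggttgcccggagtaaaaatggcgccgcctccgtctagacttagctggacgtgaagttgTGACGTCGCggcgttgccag

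RefSeq windows of 300 bases, from 250 before to 50 after the start, were matched for 41 of the 49 genes. The antioxidant response element core stood in 6 of 41 member windows (14.6%: Psmb5, Psmb6, Psmc6, Psmd9, Psmd12 and Psme4) and in 12.4% of all 32851 windows. The kappa B pattern stood in 24.4% of member windows, those of Psme4, Psmd11 and Psmd12 among them, and 20.7% of all windows, the CCAAT box in 34.1% and 37.4%, and the gamma-activated site TTCNNNGAA in 7.32% and 8.30%. The interferon-stimulated pattern (GAAA on both sides of NN) stood in 5 of 41 member windows (12.2%: Psmb3, Psmd4, Psmd9, Psme1 and Psmg4) and in 3.44% of all windows. Both strands were searched, and a match is a run of letters, not a measured site.

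The immunoproteasome genes went in different directions, and none was called. Psmb8, Psmb9 and Psmb10 had log2 changes of 0.01, -0.48 and 0.18, and without AngII replicate 1 of -0.74, -0.52 and -0.03. Psmb8, which replaces Psmb5, had 30.1, 10.1 and 9.59 CPM in AngII hearts, against 22.0, 11.7 and 15.9 CPM in CON hearts. AngII replicate 1 was the highest of all 6 hearts, and AngII replicates 2 and 3 were the lowest. The SE of its log2 change was 0.49 and edgeR's adjusted p was 0.998; without AngII replicate 1 the unadjusted p was 0.0335 and edgeR's adjusted p 0.279. Psmb9, which replaces Psmb6, had 6.83, 5.40 and 7.13 CPM in AngII hearts, against 11.8, 6.59 and 8.51 CPM in CON hearts (SE 0.25, edgeR adjusted p = 0.714). The groups overlapped by the lowest CON heart. With the length offset the log2 change of Psmb9 was -0.56 (edgeR unadjusted p = 0.0486, adjusted p = 0.609). Exons of Psmb9 overlap those of Tap1 on the other strand, and the strandedness of the libraries is not given, so reads of these neighbours may not be told apart.

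Psmb10, which replaces Psmb7, had 34.5, 23.7 and 22.5 CPM in AngII hearts, against 25.3, 20.02 and 25.8 CPM in CON hearts (SE 0.21, edgeR adjusted p = 0.851). AngII replicate 1 was again the highest heart, and the other 2 AngII hearts lay within the CON range. Per length Psmb10 was the most abundant of these genes, at 14.5 ± 1.05 FPKM in AngII hearts and 12.5 ± 1.70 FPKM in CON hearts. Psmb8 stood at 4.28 ± 2.26 FPKM in AngII hearts and 4.28 ± 0.592 FPKM in CON hearts. Psmb9 stood at 1.64 ± 0.317 FPKM in AngII hearts and 2.16 ± 0.244 FPKM in CON hearts. The constitutive counterparts were all more abundant in every heart.

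Set against the subunit it replaces, each immunoproteasome gene had a lower mean ratio in AngII hearts. The FPKM ratio of Psmb9 to Psmb6 was 0.0287, 0.0320 and 0.0445 in AngII hearts, against 0.0730, 0.0456 and 0.0524 in CON hearts, and the groups did not overlap. The ratio of Psmb8 to Psmb5 was 0.127, 0.0533 and 0.0550 in AngII hearts, against 0.132, 0.0836 and 0.0953 in CON hearts. Here AngII replicate 1 lay among the CON hearts, and the other AngII hearts below them. The ratio of Psmb10 to Psmb7 was 0.603, 0.439 and 0.429 in AngII hearts, against 0.603, 0.499 and 0.628 in CON hearts, with the same arrangement. These ratios are given as a description and were not tested.

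**Figure D5:**
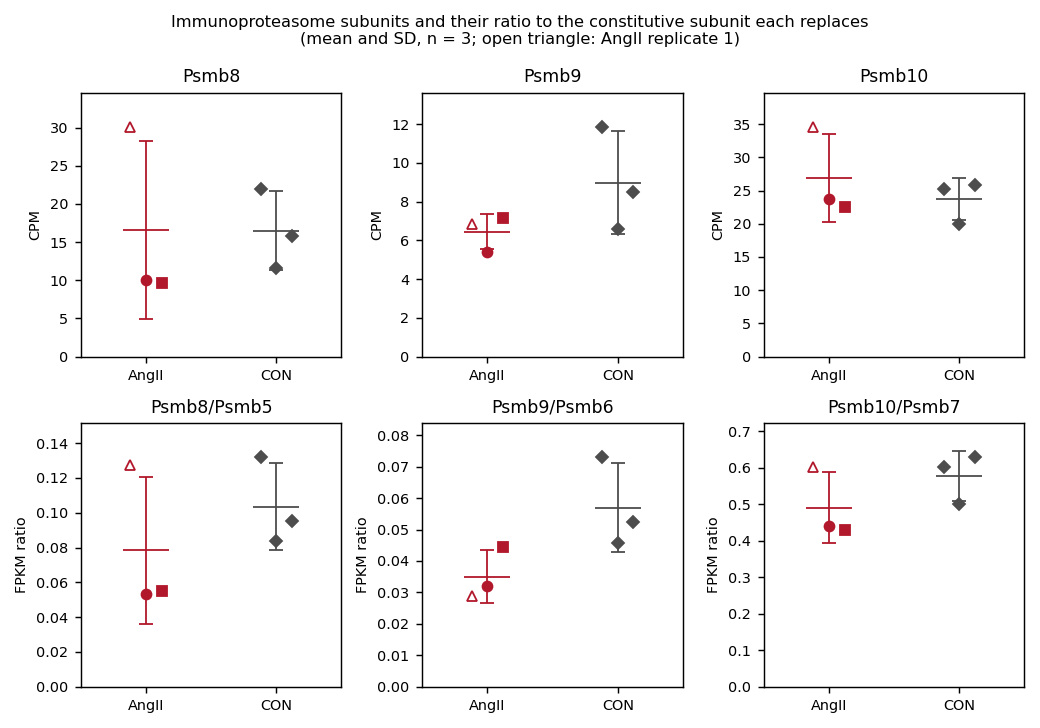
CPM of the 3 immunoproteasome genes (top) and the FPKM ratio of each to the constitutive subunit it replaces (bottom), with AngII left and CON right, each point a library and bars the mean and 1 SD (n = 3). AngII replicate 1 (open triangle) is the highest AngII point in the Psmb8 and Psmb10 panels, and in the Psmb9 to Psmb6 panel all AngII points lie below all CON points.

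Immune cells express the immunoproteasome at high levels, and their markers differed between the libraries. The 8 leukocyte and macrophage markers summed to 473, 214 and 243 CPM in AngII hearts, against 310, 329 and 324 CPM in CON hearts. By this sum AngII replicate 1 was the highest and AngII replicates 2 and 3 the lowest, as for Psmb8. The single markers were divided. AngII replicate 1 was the highest heart for Csf1r, C1qa, C1qb and Lyz2, at 36.9, 86.9, 81.1 and 172 CPM. For Ptprc, Adgre1 and Cd74 it lay below every CON heart, at 3.82, 4.83 and 80.6 CPM, and for Cd68 within the CON range. The log2 changes of C1qa, C1qb and Lyz2 were 0.43, 0.27 and 0.01, and 0.19, 0.06 and -0.14 with the length offset. That of Csf1r went the other way, from -0.08 to 0.02. The part of transcript length in the sum was not tested. At an unadjusted p under 0.05, 2 of the 8 leukocyte and macrophage markers were lower in AngII hearts, where 3.94% of all genes were lower. So were 3 of 6 endothelial, 3 of 6 fibroblast, 1 of 2 granulocyte, 1 of 3 adipocyte and 5 of 5 red blood cell genes tested. The smooth muscle and pericyte, T cell and B cell lists had 0 lower. Higher at that p was 1 of 6 cardiomyocyte markers, Mb, where 3.57% of all genes were higher. The other fibroblast markers, Pdgfra, Postn and Dcn, had log2 changes of 0.24, 0.22 and -0.30. Without AngII replicate 1 these were 0.44, 0.65 and 0.14. T cell markers summed to at most 1.07 CPM and B cell markers to at most 1.73 CPM in any library, and Cd3e, Cd3d and Cd8a were at 0 in some libraries. The 6 endothelial markers summed to 473 to 493 CPM in AngII hearts and 636 to 674 CPM in CON hearts, and the 5 red blood cell genes to 444 to 593 CPM in AngII hearts and 802 to 2038 CPM in CON hearts. The 6 fibroblast markers summed to 209, 489.9 and 469 CPM in AngII hearts, against 456, 483 and 469.5 CPM in CON hearts, with AngII replicate 1 the lowest. The 6 cardiomyocyte markers summed to 36698 to 46348 CPM in AngII hearts and 31081 to 37026 CPM in CON hearts. The part of these differences in the values of the core, 19S and immunoproteasome genes was not tested.

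The genes that act with the immunoproteasome in class I antigen processing had log2 changes below 0 in 10 of 10, with a median of -0.31. Of all genes tested 50.9% lay above 0, with a median of 0.01, and 0 of the 10 passed an adjusted p of 0.05. Without AngII replicate 1, 1 of 10 lay above 0 and the median was -0.26. Tap1, a subunit of the peptide transporter of the endoplasmic reticulum, had 4.78, 5.18 and 7.70 CPM in AngII hearts, against 10.96, 7.84 and 15.3 CPM in CON hearts (log2 change -0.95, SE 0.31, edgeR adjusted p = 0.548). H2-K1, a class I heavy chain whose reads can be shared with other class I genes, had 67.6, 48.8 and 77.2 CPM in AngII hearts, against 156.7, 93.7 and 86.1 CPM in CON hearts (log2 change -0.80, SE 0.29, edgeR adjusted p = 0.599). Both had groups that did not overlap and an unadjusted p under 0.05. The interferon-responsive factor Irf1 had a log2 change of -0.39 (edgeR adjusted p = 0.667).

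The assembly chaperones showed no common shift. The core chaperones Psmg1 to Psmg4 pair alpha subunits into rings, and their log2 changes of 0.20, 0.20, 0.19 and 0.56 were -0.10, 0.10, -0.15 and 0.01 without AngII replicate 1. Psmg4 had 13.8, 5.75 and 5.80 CPM in AngII hearts, against 7.00, 5.0 and 5.20 CPM in CON hearts, so that its log2 change (SE 0.38, edgeR adjusted p = 0.764) lay with 1 heart. The 19S chaperones Psmd5, Psmd9 and Psmd10 bind single ATPases before the base forms, and their log2 changes were -0.13, -0.09 and -0.12, and 0.18, -0.03 and -0.21 without AngII replicate 1. Psmd5 had 3.89, 9.15 and 9.36 CPM in AngII hearts, against 9.59, 9.37 and 5.598 CPM in CON hearts, with 1 low heart in each group. Psmd9 had 9.25, 9.74 and 11.3 CPM in AngII hearts, against 11.3, 9.55 and 11.4 CPM in CON hearts, which overlap. Psmf1, which binds the core, had 9.27, 11.6 and 12.9 CPM in AngII hearts, against 13.5, 11.8 and 11.3 CPM in CON hearts (log2 change -0.11, SE 0.18, edgeR adjusted p = 0.894; 0.01 without AngII replicate 1).

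Psma8, the alpha subunit of testis proteasomes, was barely counted, at 0.230, 0.384 and 0.112 CPM in AngII hearts and 0.0875, 0.511 and 0.127 CPM in CON hearts. Psmc3ip, set apart from the subunits, had 2.62, 1.82 and 1.84 CPM in AngII hearts and 2.12, 1.19 and 3.02 CPM in CON hearts. Of the pseudogenes, Psma5-ps held 59, 213 and 193 estimated counts in AngII hearts and 97, 111 and 115 in CON hearts, the others 0 to 12. Reads of Psma5 can be split with this copy, and Psma5 itself had 28.4, 28.4 and 25.2 CPM in AngII hearts, against 25.6, 24.7 and 24.7 CPM in CON hearts.

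Partners and regulators of the proteasome were read from a list of 29 genes, of which 0 had an unadjusted p under 0.05. Their log2 changes were above 0 in 19 of 29, with a median of 0.07. Nfe2l1, a membrane-bound factor that is released when proteasome activity is short and turns on subunit genes, had 63.9, 27.8 and 27.0 CPM in AngII hearts, against 26.4, 20.4 and 20.4 CPM in CON hearts. All AngII hearts lay above all CON hearts, AngII replicates 2 and 3 only just, and the log2 change was 0.82 (SE 0.36, edgeR adjusted p = 0.671), and 0.29 without AngII replicate 1. Its relative Nfe2l2 had a log2 change of -0.11 (edgeR adjusted p = 0.857). Pomp, the chaperone that closes assembly of the core, had 42.4, 49.8 and 40.8 CPM in AngII hearts, against 48.2, 36.8 and 41.4 CPM in CON hearts (log2 change 0.07, SE 0.16, edgeR adjusted p = 0.922). The polyubiquitin gene Ubb had a log2 change of 0.25 (edgeR adjusted p = 0.739) and groups that did not overlap.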

How the data were processed

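Whole-heart poly(A) RNA of 3 AngII and 3 CON mice was sequenced as paired-end libraries, per the labels' protocols. Per the submitters' processing notes, the tools were Bowtie 0.12.2, HISAT2 2.0 and StringTie 1.3.0, whose roles are not given, and the build was mm8. Coordinates printed here are those of GRCm38, since 94.2% of 55141 gene IDs shared with GENCODE M21, and 43 of the 50 members, had its positions. The deposited table holds FPKM, with 0.0001 standing for 0, and an estimated count for each gene, both made by the authors. Strandedness and the counting of shared reads are not given in the sources used here. The labels' protocol text speaks of adipose tissue, and the sample labels of heart.

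The deposited estimated counts went into edgeR's two-sided quasi-likelihood test (version 4.0.16, TMM scaling, filterByExpr) in R 4.3.3, with Benjamini-Hochberg adjustment over 16759 genes and a threshold of 0.05, and the same code was tested on simulated data. CPM used TMM-scaled library sizes. Alternatives were other scalings, no filter, DESeq2 1.42.0, limma 3.58.1 on log2(FPKM + 0.5), each library left out, the replicate number as a block and, chosen after seeing the data, an offset for transcript length. Nothing says how the animals were housed or grouped, so p-values measure the spread between these hearts. Members named in full are the catalytic and immunoproteasome subunits, the member of each class with the largest change and with the smallest p, and those with an unadjusted p under 0.05. Others (Psma5, Psme1, Psme2, Psmd8 and Psmd14 among them) were chosen after their values were seen. The members and lists were chosen with earlier results of these data known. Figures were drawn with matplotlib 3.10.9.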

Additional observations from a re-analysis of the deposited data

How the results depend on the processing

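The number of genes called with all libraries, 6, was 12 without the low-count filter, 276 with DESeq2, 3, 2 and 3 with limma on log2(FPKM + 0.5), + 0.1 and + 1, 1 with limma and no filter, 12 with the length offset, 164 with that offset and without AngII replicate 1, and 0 to 129 with 1 library left out. Proteasome members called numbered 0, except 1 with DESeq2 (Psmb7), and 1 (Psme4) without AngII replicate 1, with and without the length offset; leaving out 1 library thus gave 0 to 1. The replicate number as a block gave 0 genes called and 0 members. Deviations from the group mean correlated at 0.08, 0.11 and -0.04 between AngII and CON hearts of the same number. Between hearts of different numbers the correlations ran from -0.13 to 0.08. With 3 libraries in each group, these values cannot decide whether the numbers pair the hearts. The median log2 change of the alpha ring, 0.35, was 0.18 with the length offset and 0.14 with it and without AngII replicate 1; with 1 library left out it was 0.12 to 0.43. That of the 19S non-ATPases, 0.20, was 0.19 to 0.28 with 1 library left out, reaching 0.26 and 0.28 without AngII replicates 2 and 3. That of the activators, 0.16, was 0.0308 with the length offset and 0.10 to 0.27 with 1 library left out. Psmb8, near 0 with all libraries, turned negative with nuclear genes only (-0.0012), with limma (-0.091, -0.108 and -0.075 at the 3 pseudocounts, and -0.091 with no filter), with the replicate block (-0.16), with the length offset (-0.0931, and -0.73 without AngII replicate 1), and with 1 library left out it ran from -0.74 to 0.28. With 1 library left out, Psmb10 ran from -0.035 to 0.296, Psmd5 from -0.34 to 0.18, Psmf1 from -0.22 to 0.013, Pomp from -0.018 to 0.18 and Psma8 from -0.52 to 1.154, each of them taking both signs. With the length offset and without AngII replicate 1, Psmb10 was -0.0259, Psmd5 0.19, Psmf1 0.0284 and Psma8 7.11e-05. Psma8 was also 0.00036 with limma and no filter and 0.20 with the replicate block. The cause of these changes was not tested. The few counts of Psma8 and Psmb11 limit what can be read from them.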
